A study of Mus musculus with 33 samples.

Results

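The DNA replication and recombination genes described here are 46 genes, chosen by symbol, of the 54752 features in the deposited count table of bone marrow cells sorted from mice. All 46 symbols had a row, and all 46 passed the filter on low counts. By role they are 10 genes of origin recognition and licensing, 5 of helicase activation, 8 of the polymerases and primase, 10 of the sliding clamp, its loader and lagging strand synthesis, 5 of nucleotide supply, 5 of chromatin assembly and methylation maintenance, and 3 of recombination. The series sequenced RNA of 11 sorted populations, with 3 biological replicates each and 33 libraries in all. From wild type control mice these were the Ly6C-negative granulocyte-monocyte progenitor (Ly6C- GMP), proNeu1, proNeu2 and preNeu of the neutrophil path, and of the monocyte path the common monocyte progenitor (cMoP), the population labelled TpMo and the Ly6Chi monocyte. The same 4 populations from Ly6C- GMP to preNeu were also sorted from septic mice, taken 3 days after mid-grade ligation and puncture of the caecum (CLP), a surgical model in which gut contents leak into the abdomen. The labels used here give no strain, age or sex, no numbering that pairs libraries across populations, and no sham-operated group, so the sepsis comparisons set CLP mice against the control mice described as wild type.

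DNA replication starts at origins, where the origin recognition complex, Cdc6 and Cdt1 load the ring of Mcm2 to Mcm7 around DNA before S phase. At the start of S phase, Cdc45 and the GINS proteins join the ring and turn it into an active helicase, after which DNA polymerase alpha and primase begin each new strand and polymerases epsilon and delta extend it. Many genes of DNA replication are known as targets of E2F transcription factors and are transcribed in dividing cells. In bone marrow, granulocyte and monocyte progenitors divide several times before they mature, and mature cells leave the cell cycle.

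Levels are CPM, counts per megacount of library size, with library sizes scaled by the TMM method, and changes are log2 fold changes ± SE from edgeR's quasi-likelihood test on all 33 libraries, with Benjamini-Hochberg adjustment over 18198 tested genes. A gene was called at an adjusted p under 0.05. The p-values rest on the spread between biological replicates, estimated over all 33 libraries in 1 fit and shared in part across genes. They do not rest on the replicates of the compared groups alone. Libraries held 5.52 to 40.0 Mcounts (megacounts), with 5 shallow libraries at 6.78 Mcounts or less (1 each of proNeu1, preNeu, Ly6Chi monocyte, septic proNeu1 and septic preNeu), and the lowest raw count of any of the 46 genes was 2, or 57 outside the Ly6Chi monocyte libraries. The summed level of 6 monocyte markers was 12487.2 to 13034.8 CPM in TpMo and 11382.3 to 13324.8 CPM in Ly6Chi monocytes, and that of 6 neutrophil markers was 66213.4 to 106301.2 CPM in preNeu. The control Ly6C- GMP libraries also held 11913.1 to 17642.7 CPM of 8 eosinophil, basophil and mast cell markers. The 9 cMoP, TpMo and Ly6Chi monocyte libraries read as male (Xist 0 to 1.4, Ddx3y 68.8 to 98.6 CPM over unscaled totals) and the other 24 as female (Xist 153 to 587, Ddx3y 0 to 0.725). A comparison of a monocyte-path population with Ly6C- GMP or proNeu1 therefore also compared the sexes, and the 2 cannot be told apart. In bulk samples, fewer cells of a dividing type and less RNA per cell cannot be told apart either.

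All 46 genes had their lowest mean level in the Ly6Chi monocyte. The highest mean lay in septic proNeu2 for 13 genes, in TpMo for 8, in proNeu1 for 7, in septic Ly6C- GMP for 6, in preNeu and in septic preNeu for 4 each, in proNeu2 for 3 and in septic proNeu1 for 1. Levels per kilobase of gene model allow only a rough comparison between genes, because the length counts all annotated exons of a gene. On this scale the most abundant in control Ly6C- GMP were Mcm6 (168 CPM per kb), Rrm2 (156), Mcm3 (144), Mcm5 (130) and Pold2 (125). The least abundant there were Polq, an end-joining polymerase, at 3.11 CPM per kb, and Orc1, the largest subunit of the origin recognition complex, at 3.78 CPM per kb. In preNeu the order of abundance differed: Rrm2, the regulatory subunit of ribonucleotide reductase, stood at 507 CPM per kb, ahead of Mcm5 at 183, Mcm6 at 143 and Uhrf1 at 138 CPM per kb. Ly6Chi monocytes held at most 33.5 CPM per kb of any of the 46 genes, for Pcna, followed by Mcm6 at 33 and Mcm3 at 31.4 CPM per kb.

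**Figure D1:**
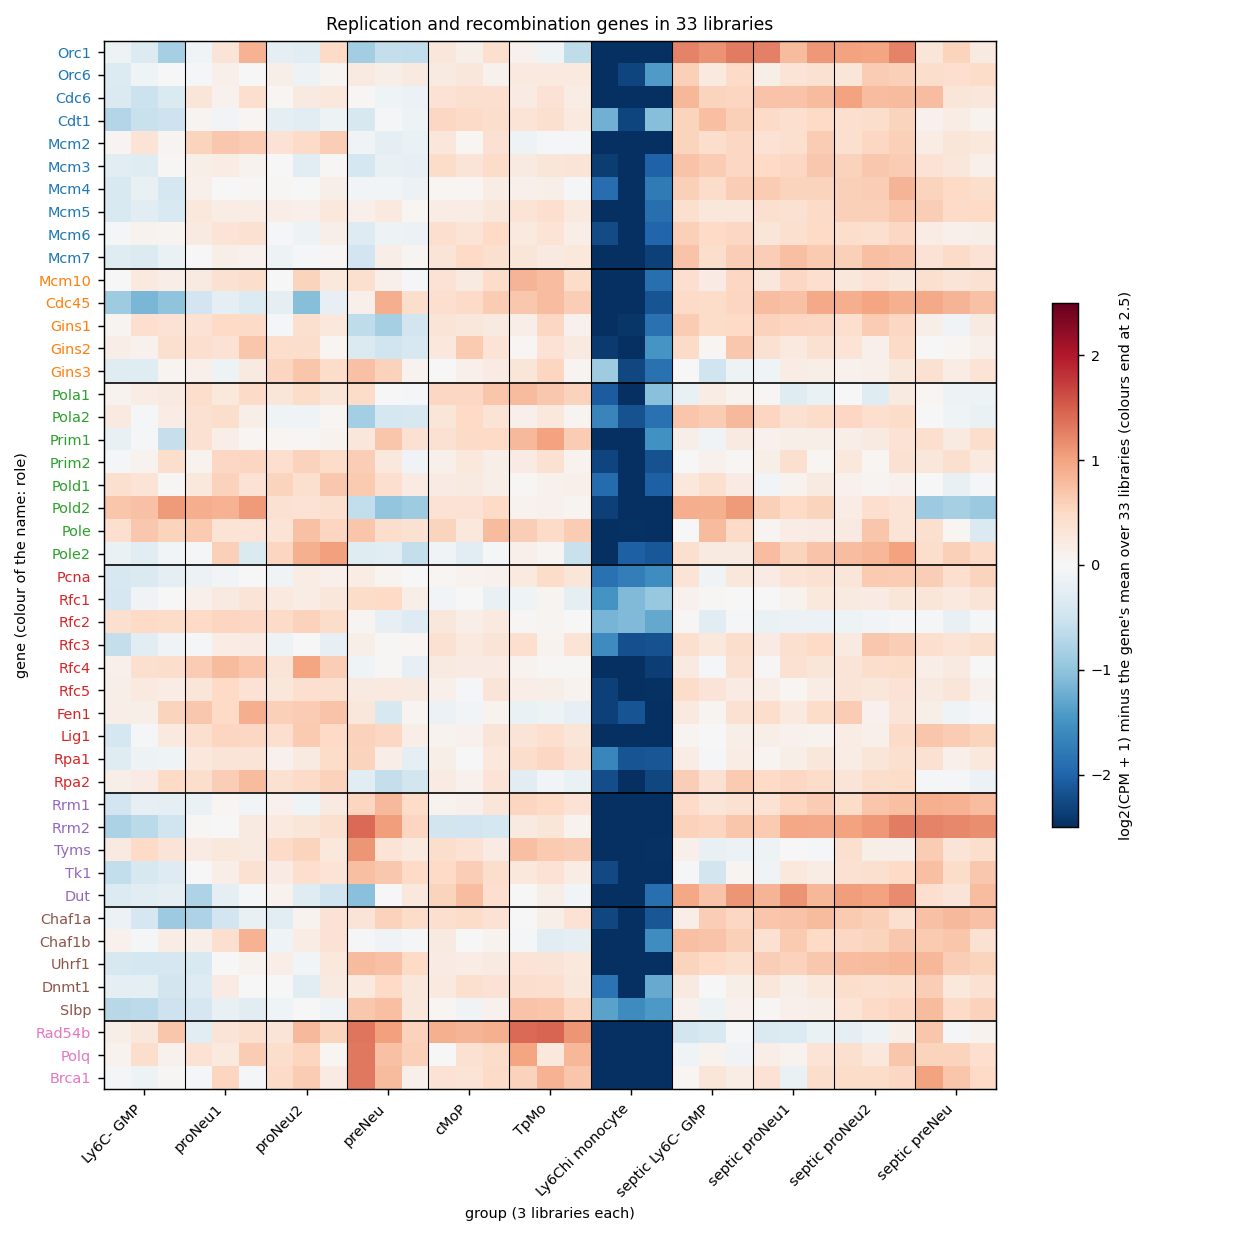
Level of each of the 46 genes (rows, name colour by role) in each of the 33 libraries (columns, by population), as log2(CPM + 1) minus the gene's mean over the 33 libraries, with colours ending at 2.5 in either direction. The 3 Ly6Chi monocyte columns are low for all 46 genes, and the septic columns are high for most licensing genes.

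For 17 of the 46 genes some exon bases are shared with another gene in the annotation, and because the strand setting of the counting is not given in the sources used here, reads of such pairs may be split or lost. The share of exon bases reached 10% or more for 8 genes: Fen1 (78.8%, with Gm10143), Gins2 (67.3%, with Gse1), Chaf1a (52.5%, with Ubxn6), Rad54b (35.8%, with Fsbp on the same strand), Rfc2 (15.1%, with Lat2), Rfc4 (12.7%, with Eif4a2), Orc1 (10.8%, with Gm12743) and Rfc5 (10.7%, with Wsb2). The levels of these 8 genes are uncertain to that extent. Pcna and Tyms also have pseudogenes in the table, with 6000 counts over all libraries for Pcna-ps2 and 446 for Tyms-ps.

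Promoter windows from RefSeq (GRCm38.p6, 250 bases before to 50 after the gene start) were matched by symbol for 39 of the 46 genes; the unmatched genes were Gins1, Gins2, Rfc2, Pole, Mcm4, Prim2 and Rad54b. An E2F-type motif, searched on both strands as TTTCCCGC, TTTCGCGC, TTTGCCGC or TTTGGCGC, was present in a window of 15 of the 39 genes (38.5%), against 704 of 27025 genes of the table (2.6%) and 1 of 20 genes of G2 and M phase (5%). The motif letters may overlap one another, as in the first match of Mcm6 below. CCAAT was present in a window of 25 of the 39 (64.1%), against 41.1% of all genes and 18 of 20 G2 and M phase genes (90%). A match describes letters in these windows and is neither a bound site nor a cause. The stretches below are the 160 bases before the gene start, 5′ to 3′ on the gene's strand, with E2F-type matches in capitals. The first 4 are licensing genes that hold a match and whose mean sepsis change was called, and the last 2, Rrm2 and Cdc45, are among the genes that changed most yet hold none in this stretch. Mcm6 lies at chr1:128359706-128359865 on the minus strand, Mcm5 at chr8:75109349-75109508 on the plus strand, Orc1 at chr4:108579294-108579453 on the plus strand, Cdc6 at chr11:98907991-98908150 on the plus strand, Rrm2 at chr12:24708094-24708253 on the plus strand and Cdc45 at chr16:18811973-18812132 on the minus strand.
Mcm6: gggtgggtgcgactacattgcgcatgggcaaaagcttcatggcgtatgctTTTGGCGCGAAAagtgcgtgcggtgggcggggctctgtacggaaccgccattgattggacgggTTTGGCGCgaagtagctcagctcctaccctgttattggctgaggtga
Mcm5: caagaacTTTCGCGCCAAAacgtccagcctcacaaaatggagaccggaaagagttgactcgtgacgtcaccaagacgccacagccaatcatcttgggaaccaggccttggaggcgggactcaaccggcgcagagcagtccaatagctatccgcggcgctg
Orc1: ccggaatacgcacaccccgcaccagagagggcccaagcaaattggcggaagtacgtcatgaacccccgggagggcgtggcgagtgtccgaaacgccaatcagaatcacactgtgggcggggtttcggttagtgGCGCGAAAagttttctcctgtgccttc
Cdc6: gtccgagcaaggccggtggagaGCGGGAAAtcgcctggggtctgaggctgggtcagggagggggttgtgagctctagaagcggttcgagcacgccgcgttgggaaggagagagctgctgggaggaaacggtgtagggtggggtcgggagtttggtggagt
Rrm2: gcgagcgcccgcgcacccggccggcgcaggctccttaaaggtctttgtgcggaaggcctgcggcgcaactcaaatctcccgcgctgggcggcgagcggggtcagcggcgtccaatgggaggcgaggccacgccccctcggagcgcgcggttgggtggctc
Cdc45: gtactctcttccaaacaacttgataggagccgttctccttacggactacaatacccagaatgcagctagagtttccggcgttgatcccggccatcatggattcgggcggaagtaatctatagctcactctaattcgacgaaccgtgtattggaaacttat

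The matches began 110, 106 and 47 bases before the gene start in Mcm6, 153 and 149 bases before it in Mcm5, 27 bases in Orc1 and 138 bases in Cdc6. Of the 15 genes with a motif, 11 had a higher mean sepsis level by the test and 1 a lower one, and of the 24 with a window and no motif, 11 were higher and 1 lower. In preNeu against proNeu2 the corresponding counts were 1 higher and 1 lower of 15 with a motif, and 4 higher and 6 lower of 24 without. In cMoP against Ly6C- GMP they were 9 higher and 0 lower of 15, and 7 higher and 1 lower of 24.

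Between Ly6C- GMP and proNeu1, 8 of the 46 genes rose and 0 fell, where 6.04% of all tested genes were called (3.59% as higher and 2.45% as lower); the median log2 change of the 46 was 0.29, against 0.00 over all tested genes. Of these, 4 belong to licensing (Cdc6, Cdt1, Mcm2 and Mcm5), 2 to lagging strand synthesis (Lig1, the ligase that joins Okazaki fragments, and Rpa1, a subunit of the single-strand binding protein RPA) and 2 to nucleotide supply (Rrm2 and Tk1, thymidine kinase). All 10 licensing genes had estimates above 0, with a median of 0.42. Rrm2 stood at 390.1, 422.4 and 480.5 CPM in the 3 Ly6C- GMP libraries and at 688.3, 681.4 and 792.8 CPM in proNeu1, without overlap. Its log2 change was 0.74 ± 0.15 (adjusted p = 0.00223, edgeR), the largest of the 8. Cdc6, which helps load the Mcm ring, stood at 122.7, 109.4 and 123.8 CPM in Ly6C- GMP and at 194.8, 171.0 and 211.6 CPM in proNeu1, again without overlap (log2 change 0.70 ± 0.19, adjusted p = 0.0234). Of the 8 calls, 7 were lost in at least 1 fit that left out a library, and Rrm2 kept its call in all 6 such fits (highest adjusted p 0.0383). The count was 2 without Ly6C- GMP library 1, 3 without library 2, 3 without proNeu1 library 1, 3 without library 2 and 1 without library 3. It was 15 with limma and 2 with total counts in place of TMM. The Ly6C- GMP libraries held the eosinophil, basophil and mast cell markers at the level given above and those of proNeu1 held 102.4 to 158.3 CPM. Dendritic cell markers summed to 2232.4 to 3133.8 CPM in Ly6C- GMP and 52.5 to 83.5 CPM in proNeu1. Megakaryocyte markers summed to 210.1 to 270.4 and 6.35 to 14.8 CPM, and B lineage markers to 803.9 to 995.9 and 3459.4 to 6366.9 CPM. The part of these markers in the changes was not tested.

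From proNeu1 to proNeu2, 1 of the 46 genes was called, and 3.05% of all tested genes (1.57% as higher and 1.48% as lower); the median change of the 46 was -0.02, against -0.01 over all. Pold2, the second subunit of DNA polymerase delta, stood at 247.6, 242.4 and 275.2 CPM in proNeu1 and at 172.5, 169.5 and 174.2 CPM in proNeu2. All 3 proNeu2 libraries lay below the proNeu1 libraries, and the log2 change was -0.57 ± 0.13 (adjusted p = 0.0173, edgeR). The call was lost without proNeu1 library 3 (log2 change -0.50, adjusted p = 0.0823), proNeu2 library 2 (-0.56, adjusted p = 0.0739) or proNeu2 library 3 (-0.58, adjusted p = 0.0526). The count was 2 without proNeu1 library 2 and 3 with DESeq2. B lineage markers summed to 3459.4 to 6366.9 CPM in proNeu1 and 413.6 to 539.7 CPM in proNeu2 (3 of 8 tested markers lower). Of 6 monocyte markers, 5 were lower in proNeu2 (median log2 change -3.06). The part of these markers in the change of Pold2 was not tested.

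At the step to preNeu, whose neutrophil marker sum is given above against 1852.3 to 3633.0 CPM in proNeu2, the 46 genes split: 5 rose and 10 fell, with a median log2 change of -0.08 against 0.00 over all tested genes. The count of 15 is to be read against 27.8% of all tested genes, 13.1% as higher and 14.7% as lower. With total counts in place of TMM scaling, 4 rose and 14 fell. The genes that rose were Cdc45, Rrm1, Rrm2, Uhrf1 and Slbp, and those that fell were Mcm2, Gins1, Gins2, Pola2, Pold2, Pole2, Rfc2, Rfc4, Fen1 and Rpa2. By role, nucleotide supply had 2 genes up and 0 down, chromatin assembly 2 up and 0 down, the polymerases 0 up and 3 down, the clamp and lagging strand group 0 up and 4 down, helicase activation 1 up and 2 down, licensing 0 up and 1 down, and recombination none called. In this step 12 of the 15 calls were kept with each library left out in turn; the exceptions were Gins2, Fen1 and Uhrf1.

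Pold2 fell furthest in relation to its error. It stood at 86.1, 65.7 and 71.0 CPM in preNeu, below all proNeu2 libraries given above (log2 change -1.21 ± 0.14, adjusted p = 7.98e-08). Pole2, the second subunit of DNA polymerase epsilon, went from 42.4, 54.4 and 60.5 CPM in proNeu2 to 23.2, 23.6 and 19.0 CPM in preNeu, the largest fall of the 10 (-1.25 ± 0.24, adjusted p = 0.000198). The catalytic subunits of these polymerases, Pold1 and Pole, were not called in this step. Pold1 stood at 443.6, 397.0 and 481.7 CPM in proNeu2 and 470.7, 401.9 and 346.1 CPM in preNeu, and Pole at 74.6, 98.3 and 86.1 CPM and 95.3, 80.3 and 76.9 CPM; neither was called, and both sets overlapped. The ratio of Pold2 to Pold1 per kilobase was 1.72 ± 0.511 (SD, n = 3) in Ly6C- GMP and 1.65 ± 0.234 in proNeu1, against 1.01 ± 0.084 in proNeu2 and 0.471 ± 0.0534 in preNeu.

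In the clamp and lagging strand group, Rpa2, the second subunit of RPA, stood at 198.9, 213.3 and 229.8 CPM in proNeu2 and 127.6, 101.7 and 111.7 CPM in preNeu (log2 change -0.91 ± 0.12, adjusted p = 6.59e-07). The clamp loader subunit Rfc2 stood at 374.7, 400.7 and 370.1 CPM in proNeu2 and at 284.6, 233.5 and 214.6 CPM in preNeu (-0.64 ± 0.09, adjusted p = 4.13e-06), with the overlap with Lat2 named above. Both genes had every preNeu library below every proNeu2 library. Of the other 4 clamp loader subunits, Rfc4 fell as well (-0.76 ± 0.17, adjusted p = 0.000982), while Rfc1, Rfc3 and Rfc5 were not called. Mcm2, a licensing gene, stood at 644.1, 699.4 and 766.3 CPM in proNeu2 and 469.4, 421.4 and 443.8 CPM in preNeu (-0.66 ± 0.11, adjusted p = 4.39e-05). It was the 1 subunit of the Mcm2 to Mcm7 ring that was called in this step.

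Among the genes that rose, Cdc45, which joins the Mcm ring to form the active helicase, stood at 150.4, 83.8 and 152.5 CPM in proNeu2 and at 191.7, 328.8 and 238.7 CPM in preNeu (log2 change 0.97 ± 0.23, adjusted p = 0.00175). Its partner Gins1, a subunit of the GINS complex, stood at 25.5, 35.5 and 31.9 CPM and at 16.7, 14.4 and 19.0 CPM (-0.90 ± 0.24, adjusted p = 0.00438), so 2 components of the same helicase moved in opposite directions. Slbp, which binds the stem-loop of histone mRNAs, stood at 198.8, 216.4 and 199.7 CPM in proNeu2 and at 344.6, 361.8 and 259.5 CPM in preNeu (0.65 ± 0.11, adjusted p = 5.12e-05). Neither Cdc45, Gins1 nor Slbp had overlapping libraries. Rrm2 went from 799.4, 839.0 and 895.4 CPM to 1814.8, 1410.6 and 987.5 CPM (0.73 ± 0.15, adjusted p = 0.000473). The preNeu libraries of Rrm2 differed widely, and without preNeu library 1 the change was 0.48 (adjusted p = 0.0167). Rrm1, the catalytic subunit of the same enzyme, rose by 0.53 ± 0.12 (adjusted p = 0.00127), and Uhrf1, which brings the methyltransferase Dnmt1 to newly made DNA, by 0.56 ± 0.17 (adjusted p = 0.0125). The Uhrf1 call was lost without proNeu2 library 2 (0.47, adjusted p = 0.077), preNeu library 1 (0.47, adjusted p = 0.073) or preNeu library 2 (0.50, adjusted p = 0.0629).

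**Figure D2:**
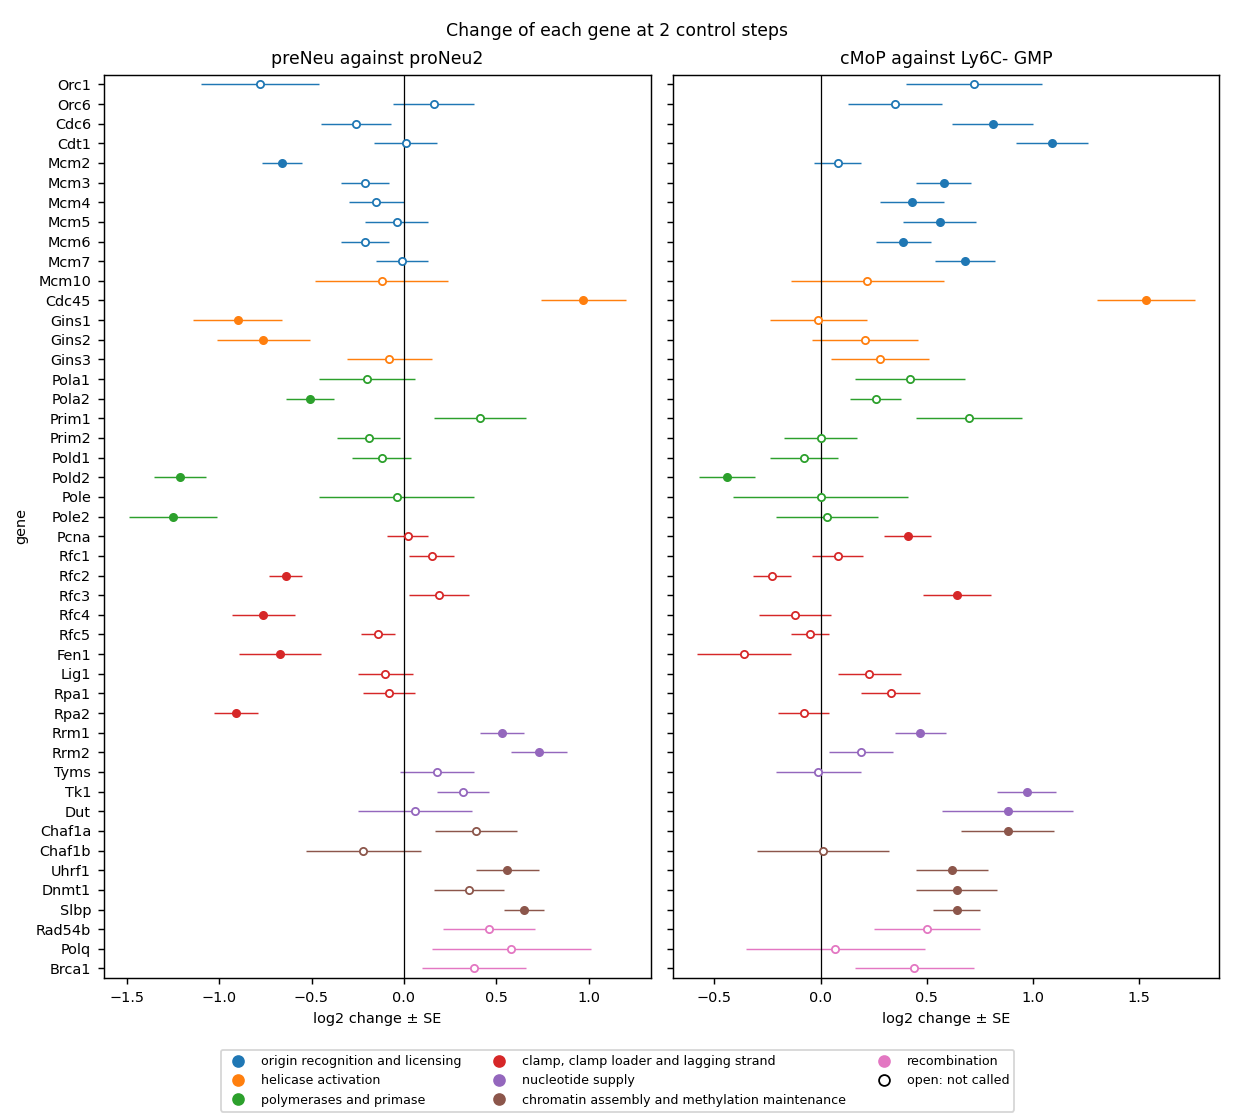
Log2 change ± SE of each of the 46 genes from proNeu2 to preNeu (left) and from Ly6C- GMP to cMoP (right), ordered by role, with filled points for genes called at an adjusted p under 0.05. In the left panel 5 genes are filled above 0 and 10 below it, and in the right panel 17 above and 1, Pold2, below.

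**Figure D3:**
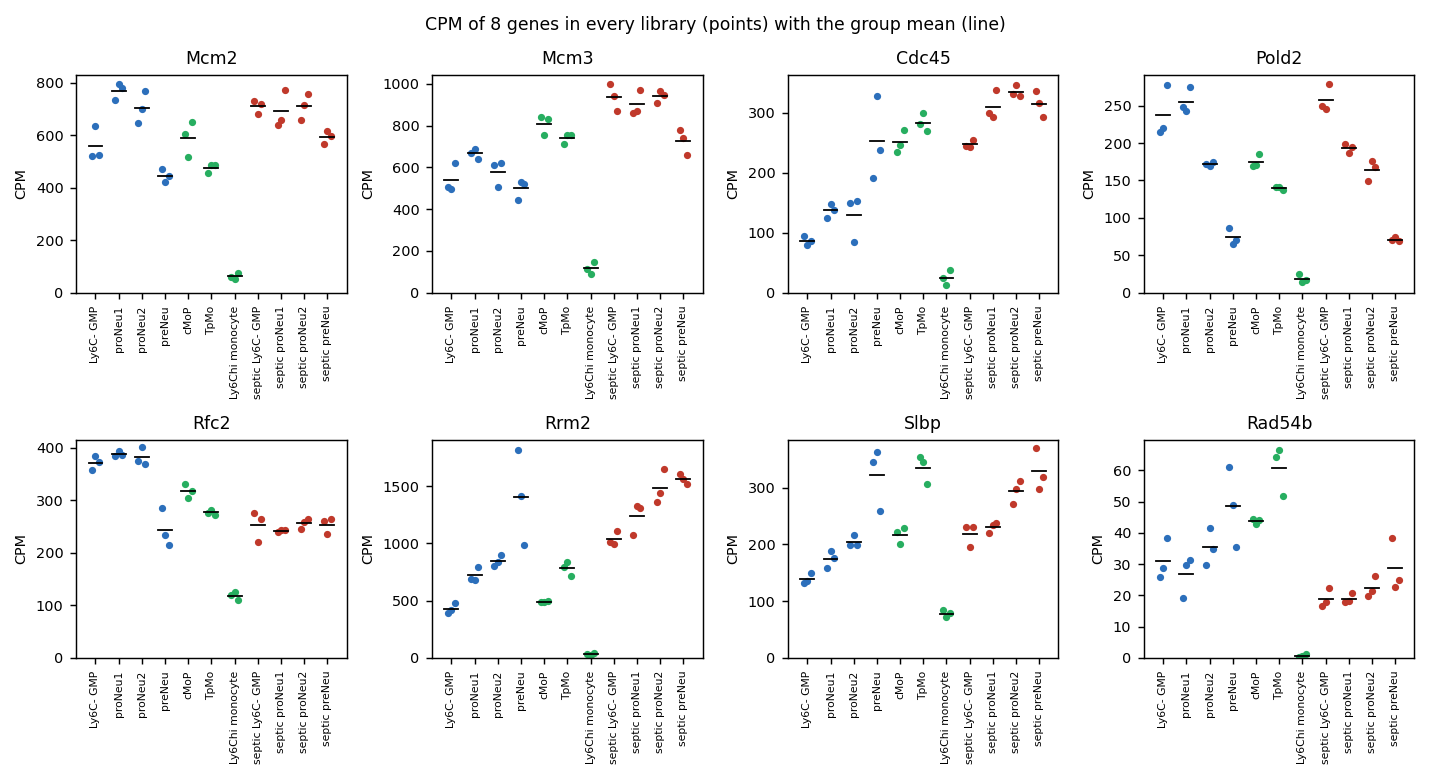
Level in CPM of 8 of the genes (Mcm2, Mcm3, Cdc45, Pold2, Rfc2, Rrm2, Slbp and Rad54b) in every library, 1 point per library, by population, with control neutrophil-path populations in blue, monocyte-path populations in green and septic populations in red. Pold2 drops in preNeu in control and septic mice (65.7 to 86.1 CPM and 68.9 to 74.0 CPM), whereas Rrm2 is at its highest in preNeu and septic proNeu2 and preNeu.

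On the monocyte path, 17 of the 46 genes were higher in cMoP than in Ly6C- GMP and 1 was lower, where 17.2% of all tested genes were called (9.22% as higher and 7.96% as lower); the median log2 change was 0.34, against 0.00 over all. Licensing had 7 genes up, chromatin assembly 4, nucleotide supply 3, the clamp and lagging strand group 2 and helicase activation 1; Pold2 was the gene that fell. Cdc45 stood at 94.5, 79.4 and 86.5 CPM in Ly6C- GMP and at 234.8, 245.9 and 271.2 CPM in cMoP (1.53 ± 0.23, adjusted p = 2.08e-05). Cdt1, which brings the Mcm ring to origins, stood at 74.0, 83.8 and 86.9 CPM in Ly6C- GMP and at 179.0, 173.3 and 170.0 CPM in cMoP (1.09 ± 0.17, adjusted p = 2.23e-05). For both genes the cMoP libraries were close together and far above all Ly6C- GMP libraries. Tk1 rose by 0.97 ± 0.14 (adjusted p = 8.08e-06), and Chaf1a, the large subunit of the histone chaperone CAF-1, by 0.88 ± 0.22 (adjusted p = 0.0047). Ubxn6, which shares exon bases with Chaf1a, had means of 4.85 CPM in Ly6C- GMP and 6.26 CPM in cMoP. Its part in the Chaf1a values was not tested. Pold2 stood at 215.0, 220.6 and 277.0 CPM in Ly6C- GMP and 169.8, 170.5 and 185.5 CPM in cMoP (-0.44 ± 0.13, adjusted p = 0.0213), a call lost without Ly6C- GMP library 3 (-0.31, adjusted p = 0.171), cMoP library 1 (-0.42, adjusted p = 0.0813) or cMoP library 2 (-0.43, adjusted p = 0.0671). With each library left out in turn, 10 of the 18 calls were kept. In cMoP the eosinophil, basophil and mast cell markers summed to 13.6 to 25.1 CPM, with Il5ra at 0. Their sum in Ly6C- GMP, given above, was far higher. Dendritic cell markers summed to 14.4 to 25.4 CPM in cMoP and 2232.4 to 3133.8 CPM in Ly6C- GMP. Megakaryocyte markers summed to 1.55 to 3.04 and 210.1 to 270.4 CPM. Monocyte markers went the other way, at 8052.4 to 8489.8 CPM in cMoP and 571.0 to 730.6 CPM in Ly6C- GMP. The part of these markers in these changes was not tested.

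From cMoP to TpMo, 2 of the 46 genes rose and 1 fell, where 18.1% of all tested genes were called (9.52% as higher and 8.56% as lower); the median change was 0.00. Slbp stood at 221.8, 200.8 and 229.7 CPM in cMoP and at 353.1, 345.6 and 306.8 CPM in TpMo (log2 change 0.62 ± 0.11, adjusted p = 0.000161). Rrm2 stood at 491.2, 487.0 and 501.0 CPM in cMoP and at 790.4, 842.1 and 716.6 CPM in TpMo (0.67 ± 0.15, adjusted p = 0.00209). The libraries of the 2 populations did not overlap for either gene, and the same 2 genes were among those that rose from proNeu2 to preNeu. Rpa2 fell by 0.39 on the log2 scale (SE 0.12, adjusted p = 0.0182), a call lost without cMoP library 3 (-0.32, adjusted p = 0.109) or TpMo library 1 (-0.35, adjusted p = 0.0877). This count depended on the model: with the libraries of cMoP and TpMo alone it was 14, with limma 14, with DESeq2 6, and with total counts in place of TMM 9, of which 2 rose and 7 fell.

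All 46 genes were lower in the Ly6Chi monocyte than in TpMo, where 20.9% of all tested genes were called, 7.59% as higher and 13.3% as lower; the median log2 change of the 46 was -2.72, against 0.00 over all. No library of any of the 46 genes overlapped between the 2 populations, and 46 were called in every alternative fit run. The share of all tested genes without such overlap was not computed, so the count without overlap has no background to be read against. The changes ran from -1.10 ± 0.13 for Rfc1 (adjusted p = 8.38e-08), the large subunit of the clamp loader, to -6.36 ± 0.35 for Rad54b (adjusted p = 1.68e-14), a DNA translocase of homologous recombination. Rfc1 stood at 121.2, 136.3 and 111.3 CPM in TpMo and 45.6, 59.8 and 66.7 CPM in Ly6Chi monocytes. Rad54b stood at 64.1, 66.4 and 51.8 CPM in TpMo and at 0.339, 0.679 and 1.13 CPM in Ly6Chi monocytes. Rfc1 was thus still well counted in the Ly6Chi monocyte, and Rad54b was close to 0. The 3 recombination genes had the median change of -6.04; they were Rad54b, Polq (-6.04 ± 0.61, adjusted p = 7.14e-09) and Brca1 (-4.80 ± 0.34, adjusted p = 4.32e-12), which acts in homologous recombination. Their Ly6Chi monocyte levels rest on few reads, with raw counts of 7, 4 and 26 for Rad54b, 2, 20 and 2 for Polq and 118, 6 and 55 for Brca1. Without Ly6Chi monocyte library 2 the change of Polq was -8.78, and without library 3 it was -5.23; that of Pole, with raw counts of 32, 58 and 7, was -6.59 without library 2 and -4.24 without library 3, against -4.96 ± 0.53 with all.

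Of the other roles, licensing fell by a median log2 change of 2.75, helicase activation by 2.94, the polymerases by 2.62, the clamp and lagging strand group by 2.35, nucleotide supply by 3.76 and chromatin assembly by 2.34. Rrm2 stood at 36.9, 25.6 and 42.1 CPM in Ly6Chi monocytes, far below its TpMo libraries (-4.47 ± 0.18, adjusted p = 3.12e-17). The genes with the smallest falls after Rfc1 were Rfc2 (-1.23 ± 0.09, adjusted p = 2.83e-11) and Cdt1 (-1.76 ± 0.17, adjusted p = 4.26e-09). Rfc2 stood at 276.4, 282.4 and 272.4 CPM in TpMo and 119.5, 125.8 and 110.2 CPM in Ly6Chi monocytes, and its overlapping neighbour Lat2 at a mean of 68.0 and 86.7 CPM. The ratio of Rfc2 to Rfc5, another clamp loader subunit, per kilobase was 2.47 in Ly6Chi monocytes, 0.944 in TpMo and 1.21 in Ly6C- GMP. Rfc5 shares exon bases with Wsb2, which had means of 11.4 CPM in TpMo and 28.1 CPM in Ly6Chi monocytes.

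The proNeu1 and cMoP populations, set side by side as the neutrophil-path and monocyte-path stages compared with Ly6C- GMP, differed in 10 of the 46 genes (7 higher and 3 lower in proNeu1), where 16.3% of all tested genes were called (8.25% as higher and 8.03% as lower); the median change was -0.06, against 0.00 over all. The clamp and lagging strand group held 4 of the 7 genes that were higher in proNeu1: Rfc2, Rfc4, Rpa2 and Fen1, the flap endonuclease of Okazaki fragment processing; the others were Mcm2, Pold2 and Rrm2. Pold2 stood at 247.6, 242.4 and 275.2 CPM in proNeu1, above 169.8, 170.5 and 185.5 CPM in cMoP (log2 difference 0.54 ± 0.13, adjusted p = 0.00484). Cdc45 stood at 125.4, 148.4 and 138.2 CPM in proNeu1, below 234.8, 245.9 and 271.2 CPM in cMoP (-0.87 ± 0.23, adjusted p = 0.00896). Chaf1a, at 54.3, 67.2 and 82.7 CPM in proNeu1 and 126.3, 129.8 and 121.5 CPM in cMoP, was also lower in proNeu1 (-0.88 ± 0.22, adjusted p = 0.00522). Its overlapping neighbour Ubxn6 had means of 4.32 CPM in proNeu1 and 6.26 CPM in cMoP. The part of Ubxn6 in the Chaf1a values was not tested. The calls of Pold2, Cdc45 and Chaf1a were kept with each library left out in turn. The other 7 calls (Mcm2, Rfc2, Rfc4, Fen1, Rpa2, Rrm2 and Dut) were lost in at least 1 such fit. The count was 6 without proNeu1 library 2, 5 without proNeu1 library 3, 5 without cMoP library 1 and 4 without cMoP library 2. It was 19 with limma, 17 with the compared libraries alone and 4 with no filter, and with total counts in place of TMM, 4 genes were higher and 8 lower. The proNeu1 libraries were female and those of cMoP male. The B lineage markers (9 genes) summed to 3459.4 to 6366.9 CPM in proNeu1 and 649.6 to 737.9 CPM in cMoP, with 3 of 8 tested markers higher in proNeu1; their part in these differences was not tested.

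In sepsis, 21 of the 46 genes were called higher in at least 1 of the 4 populations, each against the control population of the same name. Another 3 were called lower in at least 1, and 22 were called in none. The share of all tested genes called in at least 1 of the 4 was not computed. These counts therefore have no background to be read against. In Ly6C- GMP 19 of the 46 genes rose and 1 fell (17.7% of all tested genes were called, 10.3% as higher and 7.42% as lower), with a median log2 change of 0.34 against -0.01 over all tested genes. In proNeu1 11 rose and 2 fell (15.6% called, 8.3% as higher and 7.3% as lower; median 0.05 against -0.03), and with total counts in place of TMM 10 rose and 5 fell. In proNeu2 16 rose and 2 fell (17% called, 9.45% as higher and 7.57% as lower; median 0.16 against 0.00). In preNeu 9 rose and 1 fell (11.8% called, 7.57% as higher and 4.21% as lower; median 0.21 against 0.00), and with total counts 12 rose and 0 fell. The preNeu count was 6 without control preNeu library 1 and 6 without septic preNeu library 2. With the compared libraries alone it was 5, and with limma 16, while for proNeu1 those fits gave 20 and 22. In all 4 comparisons Mcm3, Mcm4, Mcm7 and the sliding clamp Pcna rose, but each of these 4 genes lost 1 of its calls in at least 1 fit that left out a library. For Mcm3 and Pcna this was the proNeu1 call, and so it was for Mcm4 (without proNeu1 library 2, 0.51, adjusted p = 0.0536). For Mcm7 it was the preNeu call (0.46 ± 0.14, adjusted p = 0.0304). This change was 0.30 without preNeu library 1 (adjusted p = 0.221). It was 0.43 without septic preNeu library 2 (adjusted p = 0.102) and 0.49 without septic preNeu library 3 (adjusted p = 0.0542). Averaged over the 4 populations, 24 genes rose and 4 fell, where 37.1% of all tested genes were called, 19.6% as higher and 17.5% as lower; the median was 0.22, against 0.00 over all.

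Among the licensing genes, all 10 had a called rise in the mean effect, with a median log2 change of 0.64, and 9, 3, 7 and 5 of them rose in Ly6C- GMP, proNeu1, proNeu2 and preNeu. Orc1 had the largest mean effect of the 46 genes, 1.14 ± 0.16 (adjusted p = 1.45e-06, edgeR). It stood at 16.1, 13.8 and 9.51 CPM in control Ly6C- GMP and at 43.1, 40.0 and 45.3 CPM in septic Ly6C- GMP (1.70 ± 0.32, adjusted p = 0.00031). In preNeu it stood at 9.30, 11.4 and 11.2 CPM in control and 22.0, 26.5 and 20.8 CPM in septic mice (1.13 ± 0.33, adjusted p = 0.0209). The septic libraries lay above the control libraries in both populations; the preNeu call was lost without preNeu library 1 (1.06, adjusted p = 0.0998) or septic preNeu library 2 (1.03, adjusted p = 0.086). Mcm3 stood at 505.8, 494.4 and 620.2 CPM in control and at 998.7, 939.5 and 870.6 CPM in septic Ly6C- GMP (0.79 ± 0.13, adjusted p = 3.76e-05). Its changes in proNeu1, proNeu2 and preNeu were 0.44 ± 0.13 (adjusted p = 0.0166), 0.70 ± 0.13 (adjusted p = 0.000208) and 0.54 ± 0.13 (adjusted p = 0.00418), and the control and septic libraries did not overlap in any of the 4. The proNeu1 call of Mcm3 was lost without proNeu1 library 1 (0.42, adjusted p = 0.0656), proNeu1 library 3 (0.41, adjusted p = 0.0683) or septic proNeu1 library 3 (0.38, adjusted p = 0.0902). Mcm4 and Mcm7 had mean effects of 0.66 ± 0.08 and 0.66 ± 0.07 (adjusted p = 4.17e-08 and 1.41e-08). Mcm2 moved least of the ring, with a mean effect of 0.15 ± 0.06 (adjusted p = 0.0333), a call lost in 15 of the 24 fits that left out 1 library (highest adjusted p 0.094). The ratio of Mcm2 to Mcm7 per kilobase was 0.916, 0.975 and 0.981 in control Ly6C- GMP, proNeu1 and proNeu2 and 0.638, 0.586 and 0.592 in the septic ones. In control preNeu the libraries gave 0.887, 0.505 and 0.571, and the septic preNeu mean was 0.605.

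In helicase activation, Cdc45 rose in 3 of the 4 populations, and its mean effect was 1.10 ± 0.12 (adjusted p = 1.27e-08). It stood at 94.5, 79.4 and 86.5 CPM in control and 245.4, 242.5 and 254.6 CPM in septic Ly6C- GMP (1.51 ± 0.23, adjusted p = 2.71e-05). In proNeu2 it stood at 150.4, 83.8 and 152.5 CPM in control and 331.3, 347.1 and 327.7 CPM in septic mice (1.38 ± 0.23, adjusted p = 9.31e-05). In preNeu, where control libraries reached 328.8 CPM, the septic libraries stood at 336.8, 315.7 and 292.6 CPM and overlapped them (0.32 ± 0.23, adjusted p = 0.436). Gins1 rose in the mean effect (0.36 ± 0.12, adjusted p = 0.0155), a call kept in all 24 fits that left out 1 library. Of the 4 single populations it was called in preNeu (0.78 ± 0.24, adjusted p = 0.03), and that call was lost without preNeu library 1 (0.80, adjusted p = 0.0887), preNeu library 2 (0.69, adjusted p = 0.119), septic preNeu library 1 (0.76, adjusted p = 0.0772) or septic preNeu library 3 (0.72, adjusted p = 0.101). Neither the Cdc45 nor the Gins1 effect was called as different between the populations by the interaction test.

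The polymerase group did not move together: its median mean effect was -0.12, with Pola2 (0.43 ± 0.06, adjusted p = 2.72e-06), the second subunit of polymerase alpha, and Pole2 (0.50 ± 0.12, adjusted p = 0.0013) higher and Pold1 (-0.32 ± 0.08, adjusted p = 0.00201) lower. Pole2 stood at 23.2, 23.6 and 19.0 CPM in control and at 40.0, 44.6 and 40.7 CPM in septic preNeu (0.92 ± 0.24, adjusted p = 0.0108). Pold1 stood at 443.6, 397.0 and 481.7 CPM in control and 323.7, 314.4 and 325.6 CPM in septic proNeu2 (-0.46 ± 0.16, adjusted p = 0.0449). Each septic Pole2 library was above, and each septic Pold1 library below, the controls of that population, but the Pold1 call in proNeu2 was lost in each of the 6 fits that left out 1 library (highest adjusted p 0.157), while that of its mean effect was kept in all 24. In the clamp and lagging strand group the mean effects were 2 higher (Pcna 0.45 ± 0.06, adjusted p = 2.18e-07, and Rfc3 0.47 ± 0.08, adjusted p = 1.78e-05) and 1 lower (Rfc2, given with the interaction test), with a median of -0.02. Pcna stood at 200.2, 205.7 and 227.2 CPM in control and 335.3, 250.8 and 323.2 CPM in septic Ly6C- GMP (0.52 ± 0.11, adjusted p = 0.00132). In proNeu1 the Pcna change was 0.39 ± 0.11 (adjusted p = 0.0178), a call lost in 4 of the 6 fits that left out 1 library (highest adjusted p 0.104).

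For nucleotide supply, 3 genes rose and 1 fell in the mean effect, with a median of 0.51. Dut, which removes dUTP and so keeps uracil out of DNA, stood at 78.1, 59.1 and 51.4 CPM in control and 151.6, 148.3 and 168.2 CPM in septic proNeu2 (1.31 ± 0.31, adjusted p = 0.00351); its mean effect was 1.12 ± 0.16 (adjusted p = 1.33e-06). The mean effect of Rrm1 was 0.51 ± 0.06 (adjusted p = 9.55e-08). Tyms, which makes thymidylate, had the opposite sign, with a mean effect of -0.26 ± 0.10 (adjusted p = 0.0407) that was lost in 15 of the 24 fits that left out 1 library (highest adjusted p 0.129). All 5 chromatin genes rose in the mean effect, with a median of 0.42. The Chaf1b call was lost in 9 of the 24 fits that left out 1 library (highest adjusted p 0.0738). Chaf1a stood at 54.3, 67.2 and 82.7 CPM in control and 152.9, 154.7 and 164.2 CPM in septic proNeu1 (1.20 ± 0.22, adjusted p = 0.000333), with the overlap with Ubxn6 named above. Ubxn6 had means of 4.32 CPM in control and 10.2 CPM in septic proNeu1, and its part in the Chaf1a values was not tested. Of the chromatin genes, 0 were called in preNeu, where the median of the 5 was 0.07 and 0 had an unadjusted p under 0.05. Rad54b was the 1 recombination gene called in the mean effect, as lower (-0.65 ± 0.13, adjusted p = 0.000144). Its 4 single effects were -0.70, -0.50, -0.65 and -0.76 from Ly6C- GMP to preNeu, with adjusted p of 0.0535, 0.201, 0.0767 and 0.0503, so none was called alone. Rad54b stood at 26.0, 28.6 and 38.4 CPM in control and 16.7, 17.8 and 22.5 CPM in septic Ly6C- GMP, without overlap, and it shares exon bases with Fsbp.

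**Figure D4:**
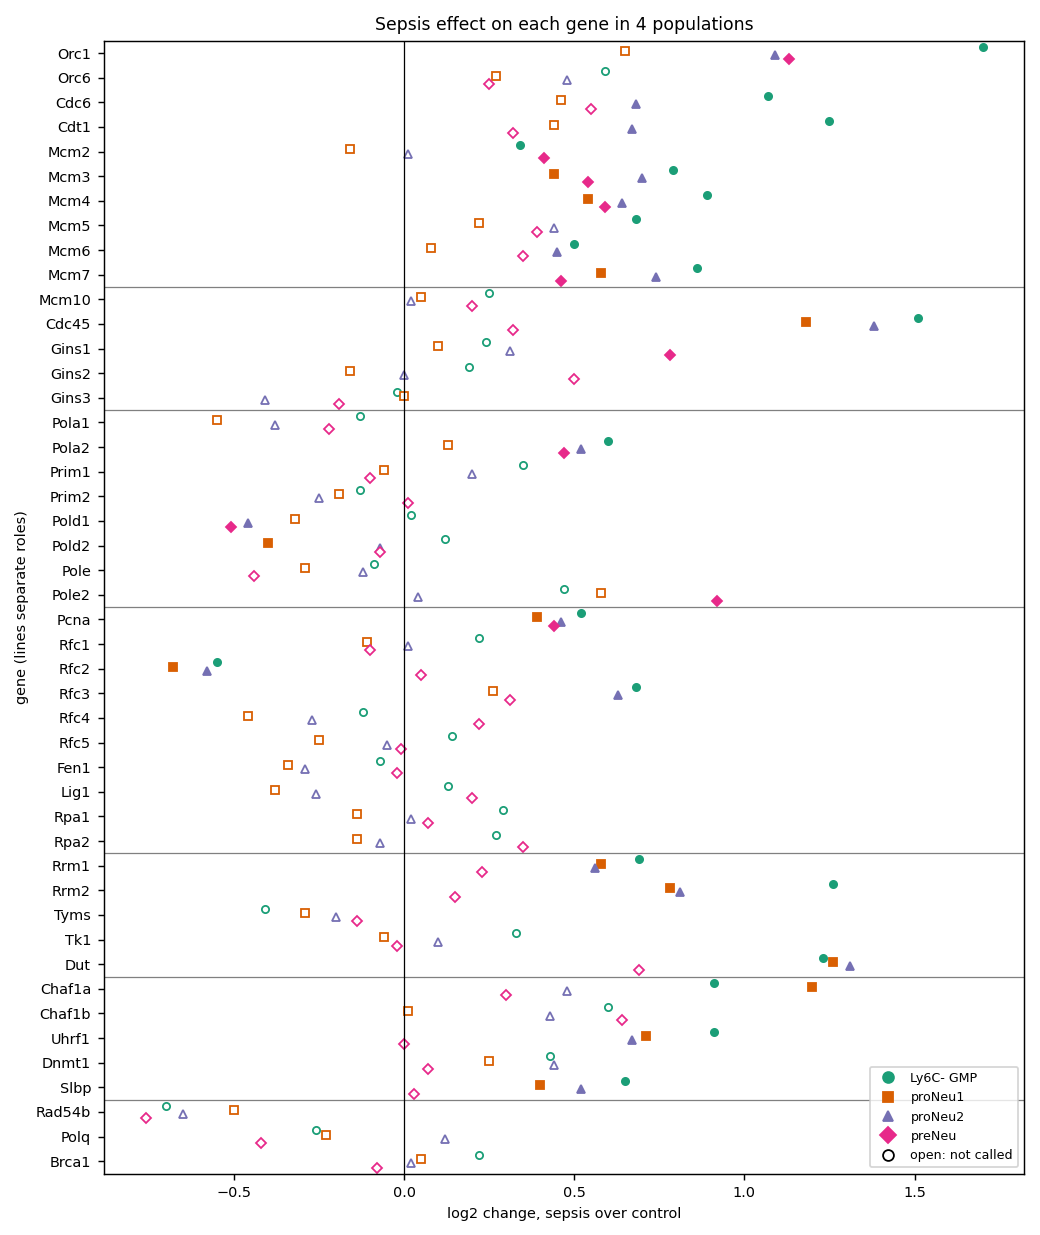
Log2 change of each of the 46 genes in septic against control mice, with 1 point for each of the 4 populations, ordered by role. Most licensing genes lie above 0 in all 4 populations, Rfc2 lies below 0 in Ly6C- GMP, proNeu1 and proNeu2 (-0.55, -0.68 and -0.58) and at 0.05 in preNeu, and Rad54b lies below 0 in all 4.

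The sepsis libraries also differed from the controls in markers of other cells. Eosinophil, basophil and mast cell markers summed to 2514.3 to 5248.3 CPM in septic Ly6C- GMP (4 of 8 lower than control), and dendritic cell markers to 28.3 to 40.8 CPM against 2232.4 to 3133.8 CPM in control Ly6C- GMP. B lineage markers summed to 39.6 to 84.0 CPM in septic against 803.9 to 995.9 CPM in control Ly6C- GMP, to 104.7 to 316.2 against 3459.4 to 6366.9 CPM in proNeu1, to 36.5 to 77.3 against 413.6 to 539.7 CPM in proNeu2, and to 36.5 to 74.8 against 350.6 to 1044.1 CPM in preNeu. Pax5 was at 0 in septic Ly6C- GMP and septic proNeu1 and Ebf1 at 0 in septic proNeu2, and 8 of 8 tested B lineage markers were lower in the mean effect. Neutrophil markers summed to 27531.7 to 37606.7 CPM in septic preNeu, below the control range given above. Monocyte markers summed to 1922.5 to 2624.9 CPM in septic against 706.2 to 1588.8 CPM in control preNeu, with 4 of 6 called higher (median log2 change 3.04). Erythroid markers (8 genes) summed to 55.9 to 94.1 CPM in control and 14.3 to 20.7 CPM in septic Ly6C- GMP. In proNeu1 they summed to 89.3 to 156.2 and 11.3 to 14.2 CPM. The 6 T and natural killer cell markers summed to 901.2 to 984.1 CPM in control and 329.4 to 409.3 CPM in septic proNeu1. In proNeu2 they summed to 1179.3 to 1552.2 and 415.2 to 494.5 CPM, and in preNeu the ranges overlapped. The 6 progenitor markers summed to 92890.2 to 98804.6 CPM in control and 41488.9 to 43887.6 CPM in septic proNeu2, but to 10883.6 to 21719.7 and 21432.0 to 22243.8 CPM in preNeu. In proNeu1 the progenitor markers summed to 73645.5 to 80938.1 and 32460.8 to 37891.9 CPM. The part of these differences in the changes of the 46 genes was not tested.

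The 4 sepsis effects differed from each other, by an interaction test over the 4 populations, for 3 of the 46 genes (Rfc2, Rrm2 and Cdt1). Of the 46, 10 had an unadjusted p under 0.05 in this test. The share of all tested genes under that unadjusted limit is not given here, so the 10 has no background to be read against. The 3 calls were a share of the 46 close to the 6.34% of all tested genes that were called. The count was 5 without preNeu library 1 and 8 with DESeq2, 14 with limma, and 6 with RLE factors. Rfc2 had the lowest adjusted p of the 3 (0.00153). It stood at 357.7, 383.7 and 373.2 CPM in control and 275.7, 220.7 and 264.2 CPM in septic Ly6C- GMP (-0.55 ± 0.09, adjusted p = 8.1e-05). In proNeu1 it stood at 383.9, 393.5 and 386.4 CPM in control and at 239.4, 243.6 and 242.8 CPM in septic mice (-0.68 ± 0.09, adjusted p = 8.75e-06). In preNeu the control libraries were already at 284.6, 233.5 and 214.6 CPM, and the septic ones, at 260.4, 236.5 and 264.8 CPM, overlapped them (0.05 ± 0.09, adjusted p = 0.802). Over the 12 septic libraries, Rfc2 lay between 220.7 and 275.7 CPM. Its overlapping neighbour Lat2 had means of 34.4 CPM in control and 13.5 CPM in septic Ly6C- GMP, 9.14 and 9.84 CPM in proNeu1, 2.40 and 4.97 CPM in proNeu2, and 2.88 and 9.56 CPM in preNeu, and its part in the Rfc2 values was not tested.

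Rrm2 had an interaction adjusted p of 0.00943. Its control levels were 390.1, 422.4 and 480.5 CPM in Ly6C- GMP and 1814.8, 1410.6 and 987.5 CPM in preNeu. The septic libraries stood at 1009.6, 992.0 and 1105.5 CPM in Ly6C- GMP, 1075.6, 1326.0 and 1310.5 CPM in proNeu1, 1360.5, 1443.7 and 1649.8 CPM in proNeu2, and 1607.9, 1558.8 and 1514.4 CPM in preNeu. Every septic library was thus above the controls except in preNeu, where the control libraries spread on both sides. The sepsis effect of Rrm2 was 1.26 ± 0.16 in Ly6C- GMP (adjusted p = 1.12e-06), 0.78 ± 0.15 in proNeu1 (adjusted p = 0.000702), 0.81 ± 0.15 in proNeu2 (adjusted p = 0.000354) and 0.15 ± 0.15 in preNeu (adjusted p = 0.605). Per kilobase, the ratio of Rrm2 to Rrm1 was 3.75 ± 0.261 (SD, n = 3) in control and 5.59 ± 0.414 in septic Ly6C- GMP, and 6.51 ± 2.01 in control and 6.13 ± 0.122 in septic preNeu. Cdt1, with an interaction adjusted p of 0.0451, had effects of 1.25 ± 0.17 in Ly6C- GMP (adjusted p = 4.58e-06), 0.44 in proNeu1 (adjusted p = 0.0705), 0.67 ± 0.17 in proNeu2 (adjusted p = 0.00474) and 0.32 ± 0.17 in preNeu (adjusted p = 0.244). It stood at 74.0, 83.8 and 86.9 CPM in control and at 182.7, 209.5 and 188.7 CPM in septic Ly6C- GMP. Its interaction call was lost in 23 of the 24 fits that left out 1 library (highest adjusted p 0.135), and those of Rfc2 and Rrm2 were kept in all 24.

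Within the septic mice, 0 of the 46 genes were called between Ly6C- GMP and proNeu1 by edgeR (3 had an unadjusted p under 0.05; 1 was called by DESeq2 and 1 by limma), where 1.29% of all tested genes were called (0.83% as higher and 0.456% as lower). Between septic proNeu1 and proNeu2 0 were called as well (2 with an unadjusted p under 0.05, 1 by DESeq2 and 1 by limma), against 0.72% of all (0.423% as higher and 0.297% as lower). The shares of all tested genes with an unadjusted p under 0.05 are not given here for these 2 steps. From septic proNeu2 to septic preNeu, 0 rose and 4 fell (Mcm3, Pola2, Pold2 and Rpa2), where 16.9% of all tested genes were called (8.51% as higher and 8.38% as lower); the median was -0.09, against 0.00 over all. Pold2 stood at 149.2, 176.0 and 167.9 CPM in septic proNeu2 and at 69.8, 74.0 and 68.9 CPM in septic preNeu (-1.21 ± 0.14, adjusted p = 3.25e-07), a change of the size seen between the control populations, from other libraries. Pola2 fell by 0.56 on the log2 scale (SE 0.13, adjusted p = 0.00192) and Rpa2 by 0.50 (SE 0.12, adjusted p = 0.00285). Pola2, Pold2 and Rpa2 thus fell at this step in both control and septic mice, in fits that share 1 estimate of the spread. The Mcm3 call (-0.37 ± 0.13, adjusted p = 0.0395) was lost in each of the 6 fits that left out 1 library (highest adjusted p 0.183). With limma the count was 13, and with the compared libraries alone 12. The ratio of Pold2 to Pold1 per kilobase was 1.80, 1.56, 1.31 and 0.639 from septic Ly6C- GMP to septic preNeu.

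Other genes of the pathway are given by list, against the shares of all tested genes named above for each comparison. Of 38 further replication genes, 7 rose and 6 fell from proNeu2 to preNeu; Dck, which phosphorylates deoxycytidine for DNA synthesis, rose by 1.78 and Asf1b, a histone chaperone, by 1.04 on the log2 scale, while Rnaseh2a, a subunit of RNase H2, fell by 1.67 and Dctpp1, a dCTP pyrophosphatase, by 1.64. Dck stood at 63.3, 67.7 and 62.7 CPM in proNeu2 and 202.7, 273.6 and 187.3 CPM in preNeu, without overlap. In Ly6Chi monocytes 30 of the 38 were lower and 1, Samhd1, was higher than in TpMo; Samhd1, which breaks down deoxynucleotides, stood at 288.0, 262.4 and 302.1 CPM in TpMo and 1127.3, 974.2 and 994.1 CPM in Ly6Chi monocytes (log2 change 1.86). In the mean sepsis effect 14 of the 38 rose and 6 fell: the histone chaperone Nasp rose by 1.22 ± 0.08 (adjusted p = 1.57e-12) and Dck by 1.15 ± 0.08 (adjusted p = 2.81e-12), while Rpa3 changed by -0.63 and the origin-firing kinase Cdc7 by -0.51. Nasp stood at 63.8, 62.2 and 59.1 CPM in control and 208.7, 179.6 and 220.4 CPM in septic Ly6C- GMP. Of 25 further recombination genes, 0 rose and 22 fell in Ly6Chi monocytes, and in the mean sepsis effect 6 rose and 4 fell (median 0.01), a share close to the 37.1% of all tested genes.

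The E2F factors and G1/S regulators (17 genes) and genes of G2 and M phase (24 genes) were set beside the 46 as a description, with no test between the lists. In Ly6Chi monocytes against TpMo, 24 of the 24 G2 and M phase genes were lower (median -3.69). Of the 17, 10 were lower and 0 higher (median -1.74). From proNeu2 to preNeu, 9 of the 17 rose and 1 fell: E2f2 stood at 22.0, 19.2 and 28.0 CPM in proNeu2 and 241.8, 224.9 and 211.7 CPM in preNeu (log2 change 3.29), and E2f7 rose by 2.75. At the same step 23 of 24 G2 and M phase genes rose and 0 fell, with a median of 0.86 against -0.08 for the 46 replication and recombination genes, whose calls went in both directions. From cMoP to TpMo 22 of the 24 rose and 0 fell, with a median of 0.89 against 0.00 for the 46. The summed level of the 46 genes was 10951 ± 541 CPM (SD, n = 3) in proNeu2 and 11380 ± 961 CPM in preNeu. Abundant genes weigh most in such a sum, and the mean of Rrm2 alone rose by more than these sums differ. The 24 G2 and M phase genes summed to 5940 CPM in proNeu2 and to 13164.6, 12867.5 and 9484.9 CPM in the 3 preNeu libraries. In sepsis, the 46 summed to 8788 ± 377 CPM in control and 12722 ± 514 CPM in septic Ly6C- GMP, and the 24 to means of 4350 and 4267 CPM. In the mean sepsis effect 4 of the 24 rose and 10 fell, with a median of -0.10; Ccna2, cyclin A2, rose by 0.92 and Cenpf, a kinetochore protein, changed by -1.05. In preNeu 0 of the 24 were higher and 10 lower in sepsis. Among the G1/S regulators 8 rose and 4 fell in the mean effect, with Ccne1, cyclin E1, at 18.5, 18.3 and 21.3 CPM in control and 112.0, 123.6 and 119.0 CPM in septic Ly6C- GMP (mean effect 1.78). The control libraries used in the sepsis comparisons are the same ones used in the comparisons along the neutrophil path.

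**Figure D5:**
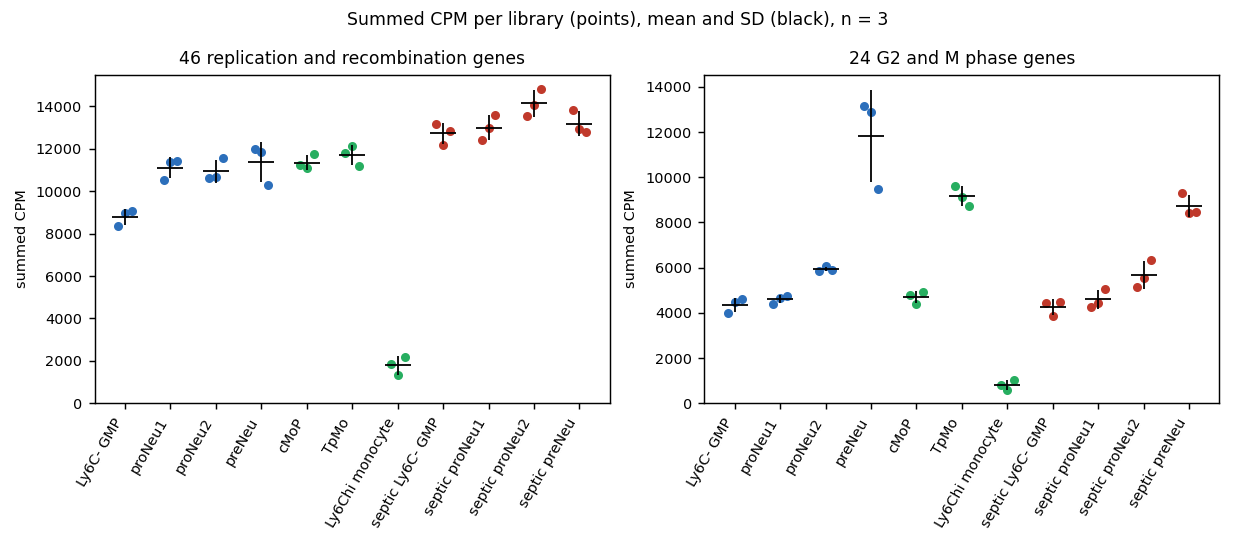
Summed level in CPM of the 46 genes (left) and of the 24 G2 and M phase genes (right) in every library, by population, with points for libraries and black marks for the group mean and SD (n = 3). The sum of the 46 is highest in septic proNeu2 (14139 ± 651 CPM) and lowest in Ly6Chi monocytes (1787 ± 436 CPM), whereas the G2 and M phase sum is highest in control preNeu (11839 ± 2040 CPM).

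As a description of how the 46 genes varied among themselves, each gene was correlated with the mean of the others. The values were log2(CPM + 1), centred per gene and divided by the gene's SD over the libraries used. These were the 30 libraries outside the Ly6Chi monocyte, libraries that share population labels, depth and treatment groups. Pearson's r was highest for Mcm5 (0.89), Cdc6 (0.84) and Pcna (0.81), and its median over the 46 was 0.48. It was below 0 for 7 genes and lowest for Rfc2 (-0.37), Pold1 (-0.29) and Pole (-0.24). Those 3 genes, a clamp loader subunit and the catalytic subunits of polymerases delta and epsilon, were thus among the genes least like the rest of the set outside the Ly6Chi monocyte, and Rad54b stood at -0.17.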

How the data were processed

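Per the labels' protocols, RNA was isolated with PicoPure columns, made into cDNA by SMARTSeq v2 and sequenced in pairs on an Illumina HiSeq. The deposited table holds raw counts per gene, which the authors made with STAR, featureCounts and GRCm38 per the submitters' processing notes; versions, strand, mate and multi-mapping settings are not given in the sources used here. Of counts from 1 to 10, 76.2% were even. Totals ran from 5.52 to 40.0 Mcounts per library, and in low counts this limits precision.

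Groups follow the labels, which give no replicate numbers that pair libraries. In R 4.3.3, edgeR 4.0.16 was fitted to all 33 libraries with TMM scaling and filterByExpr (18198 genes kept), using glmQLFit with robust estimation and glmQLFTest, 22 residual degrees of freedom and a biological coefficient of variation of 0.472. A call is an adjusted p (Benjamini-Hochberg) under 0.05 within its comparison, and SE is the log2 fold change divided by the square root of F. The scripts were tested on simulated data. Alternatives were DESeq2 1.42.0, limma 3.58.1 (voomWithQualityWeights), RLE factors, total counts only, edgeR tested against a 1.5-fold change, no filter or a filter of 1 CPM in 3 libraries, halved counts, the compared libraries alone, and omission of the 5 shallow libraries or of each library. For the mean sepsis effect alone, each of its 4 populations was also left out in turn. Named genes are, per comparison, mainly the called members that rose most (2) and fell most (2), and at least 1 member per role. Members shown beyond these, and the 46 members, lists and tests themselves, were chosen with earlier results of these data known.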

Additional observations from a re-analysis of the deposited data

Results flagged for a closer look

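Among the 46 genes and the 38, 25, 17 and 24 genes of the further replication, recombination, E2F and G1/S, and G2 and M phase lists, the 4 sepsis effects differed from each other for 12 by the interaction test of edgeR (Benjamini-Hochberg adjusted over all tested genes). The same test called 1154 of 18198 tested genes, or 6.34%. Among the 46 replication and recombination genes the adjusted p was 0.00153 for Rfc2, 0.00943 for Rrm2 and 0.0451 for Cdt1, and their levels are given in the report. These genes made up a share of the 46 close to the 6.34% of all tested genes.

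Of the further replication genes, Dck had an adjusted p of 2.19e-05, Samhd1 of 0.00358 and Nasp of 0.0277, and of the further recombination genes, Fanca, a Fanconi anaemia core complex protein, of 0.00344. Dck stood at 30.9, 33.6 and 29.1 CPM in control and 108.8, 112.5 and 100.5 CPM in septic Ly6C- GMP, and at 202.7, 273.6 and 187.3 CPM in control and 264.8, 232.0 and 210.4 CPM in septic preNeu, so that the libraries overlapped in preNeu alone of these 2 populations. Samhd1 stood at 63.7, 67.3 and 44.4 CPM in control and 110.4, 124.2 and 83.9 CPM in septic preNeu, while in Ly6C- GMP its septic libraries, at 43.0, 37.8 and 41.1 CPM, were below the control ones at 47.1, 45.7 and 67.4 CPM.

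Among the E2F and G1/S genes the adjusted p was 0.006 for E2f2, 0.029 for E2f8 and 0.0143 for Tfdp1, the E2F partner protein. E2f2 stood at 22.0, 19.2 and 28.0 CPM in control and 88.8, 80.4 and 76.6 CPM in septic proNeu2, but at 241.8, 224.9 and 211.7 CPM and 236.4, 269.0 and 273.9 CPM in preNeu, where the libraries overlapped. Among the G2 and M phase genes the adjusted p was 0.00022 for Ccna2 and 0.00858 for Cdc20, which activates the anaphase-promoting complex. Ccna2 stood at 135.2, 117.6 and 133.2 CPM in control and 359.1, 308.5 and 312.8 CPM in septic Ly6C- GMP, and at 435.7, 653.9 and 452.6 CPM in control and 573.1, 484.0 and 560.7 CPM in septic preNeu, with overlap.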

How the results depend on the processing

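Over 197 calls of single genes and 3819 alternative fits of them, 3385 kept the call, 434 lost it and 0 reversed the direction; 67 calls were kept in every setting run and 143 in every setting but the test against a fold change of 1.5. Counts below are of the 46 genes. Against a fold change of 1.5 they were 0 for proNeu1 against Ly6C- GMP, proNeu2 against proNeu1, TpMo against cMoP, proNeu1 against cMoP and sepsis in preNeu, 1 for sepsis in proNeu2 and for septic preNeu against septic proNeu2, 2 for sepsis in proNeu1, 3 for preNeu against proNeu2 and for cMoP against Ly6C- GMP, 4 for the mean sepsis effect and 5 for sepsis in Ly6C- GMP. With limma they were 15 for proNeu1 against Ly6C- GMP, 2 for proNeu2 against proNeu1, 14 for TpMo against cMoP, 19 for proNeu1 against cMoP, 22 and 16 for sepsis in proNeu1 and preNeu, 1 for each of the first 2 septic steps, 13 for the last septic step and 14 for the interaction. With DESeq2 they were 3 for proNeu2 against proNeu1, 6 for TpMo against cMoP, 1 for each of the first 2 septic steps and 8 for the interaction. With the compared libraries alone they were 14 for TpMo against cMoP, 17 for proNeu1 against cMoP, 20 and 5 for sepsis in proNeu1 and preNeu, 1, 1 and 12 for the 3 septic steps and 6 for the interaction. With total counts only they were 2 for proNeu1 against Ly6C- GMP and for proNeu2 against proNeu1 and 9 for TpMo against cMoP, where the median of all genes moved by -0.19. With no filter they were 5 for proNeu1 against Ly6C- GMP and 4 for proNeu1 against cMoP. For TpMo against cMoP, halved counts gave 5 and leaving out the shallow libraries 5; for the interaction, RLE factors, the stricter filter and halved counts gave 6 each and leaving out the shallow libraries 5. The cause was not tested for any of these. With each library left out in turn the counts ran from 1 to 6 for proNeu1 against Ly6C- GMP, 0 to 2 for proNeu2 against proNeu1, 12 to 15 for preNeu against proNeu2, 12 to 16 for cMoP against Ly6C- GMP, 2 to 4 for TpMo against cMoP, 46 to 46 for Ly6Chi monocyte against TpMo, 4 to 8 for proNeu1 against cMoP, 19 to 20, 9 to 12, 15 to 17 and 6 to 11 for the 4 sepsis comparisons in the order of the path, 0 to 0, 0 to 0 and 3 to 4 for the septic steps, 25 to 29 for the mean sepsis effect and 2 to 5 for the interaction. Of 262 medians over all 46 genes in these fits, 15 moved by more than their spread and 247 did not. For the mean sepsis effect the spread was that of the preNeu comparison. Medians of single roles were not among them. The interaction against a fold change of 1.5 was not run. No paired analysis was possible because the labels give no replicate numbers. Low counts limit the precision of the Ly6Chi monocyte values, where the lowest raw count of the 46 genes was 2.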
